A study of Homo sapiens with 6 samples.

Results

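The AP-1 transcription factor family was followed in EJ cells after knockdown of STIL, a centriole protein. The members are 9 genes of the basic leucine zipper (bZIP) class: the Fos genes FOS, FOSB, FOSL1 and FOSL2, the Jun genes JUN, JUNB and JUND, and the related genes ATF3 and BATF3. They were picked by gene symbol, and all 9 were found among the 15953 genes of the expression tables. EJ is an established human bladder cancer cell line. RNA-seq was performed on 6 libraries, 3 of cells with a lentiviral short hairpin against STIL (shSTIL) and 3 of cells with a negative control hairpin (shNC). The paper describes stable knockdown cells and their controls, and the sample labels name the groups shSTIL and shNC. The column headings of the deposited values instead read siSTIL and siNC, and the groups here follow the labels. Neither the hairpin sequence nor whether a line was a single clone is given in the sources used here. The labels number the replicates but do not say that they were separate cultures, so the p-values measure the spread between these libraries, which may be technical.

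AP-1 is not a single protein but a pair of bZIP proteins that bind DNA together. Jun proteins can pair with each other or with a Fos protein, whereas Fos proteins do not form stable pairs among themselves and need a Jun partner. Most of these genes are immediate early genes, which are switched on within minutes by growth factors, stress and signalling through RAS and the MAP kinases. FOS and FOSB carry activating domains that FOSL1 and FOSL2 lack, and in epithelial cancers FOSL1 is best known for its links to migration and a mesenchymal state. EJ cells are known for an activated HRAS gene, which lies upstream of AP-1.

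The reads assigned to the measured genes, recovered from the deposited log2 CPM, came to 16214800 to 16431200 in the shNC libraries. In the shSTIL libraries they came to 16734500 to 16901600. All read numbers below were recovered in the same way. The values below are the deposited log2 CPM, that is read counts relative to the size of the library in log2 units, and differences are log2 fold changes of shSTIL minus shNC. STIL itself had 5.98, 6.10 and 6.01 log2 CPM in the shNC libraries and 4.05, 4.06 and 4.01 in the shSTIL libraries, so both groups matched their labels (25.2% of the control level left). Differentially expressed genes (DEGs) were called with limma over all genes at a Benjamini-Hochberg adjusted p under 0.01, the threshold of the study. Of all genes, 47.1% passed, with 23.5% higher and 23.6% lower in shSTIL cells, and shNC and shSTIL values were fully apart for 60.3%. Any count of members has to be read against these large shares. As for the cell type, the epithelial keratin genes KRT8 and KRT18 and the mesenchymal gene VIM were high (7.86 to 10.5 log2 CPM as group means), while the epithelial adhesion gene CDH1 and the luminal gene KRT20 lay under -2 log2 CPM in both groups. Of 7 measured luminal markers, 2 had a mean log2 CPM of at least 1. These were FOXA1 (3.33 in shNC and 2.80 in shSTIL cells) and PPARG (4.28 and 4.53). KRT8 and VIM were themselves lower in shSTIL cells. The summed level of 4 mesenchymal markers was 1562 to 1603 CPM in shNC and 969 to 988 CPM in shSTIL libraries, and that of the 4 measured epithelial markers was 989 to 1037 and 843 to 869 CPM. The mesenchymal sum was mostly VIM (10.5 log2 CPM in shNC cells, against 6.44 for FN1, the next highest). VIM (-0.68) and FN1 (-1.19) fell, while CDH2 (-0.31) and ZEB1 (-0.030) did not pass. Of the epithelial markers KRT8 fell (-0.70), while KRT18 (-0.050), EPCAM (0.013) and CDH1 (-0.12) did not pass. The part of these markers in the AP-1 results was not tested.

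Of the 9 members, 5 rose (FOSB, FOSL1, FOSL2, JUNB and ATF3), FOS fell, and JUN, JUND and BATF3 did not pass the test. The 3 Fos members other than FOS rose by 1.65 to 1.76 times, ATF3 by 1.52 times and JUNB by 1.35 times. Among all genes 23.5% were higher. Among the 9908 genes whose mean log2 CPM reached that of BATF3, the member with the fewest reads, 65.2% passed, 32.4% higher and 32.9% lower, and 77.7% did not overlap between the groups. The median log2 fold change was 0.43 over the members and 0.0052 over all genes. In bulk RNA, a change per cell and a change in the share of cells that express a gene cannot be told apart.

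**Figure D1:**
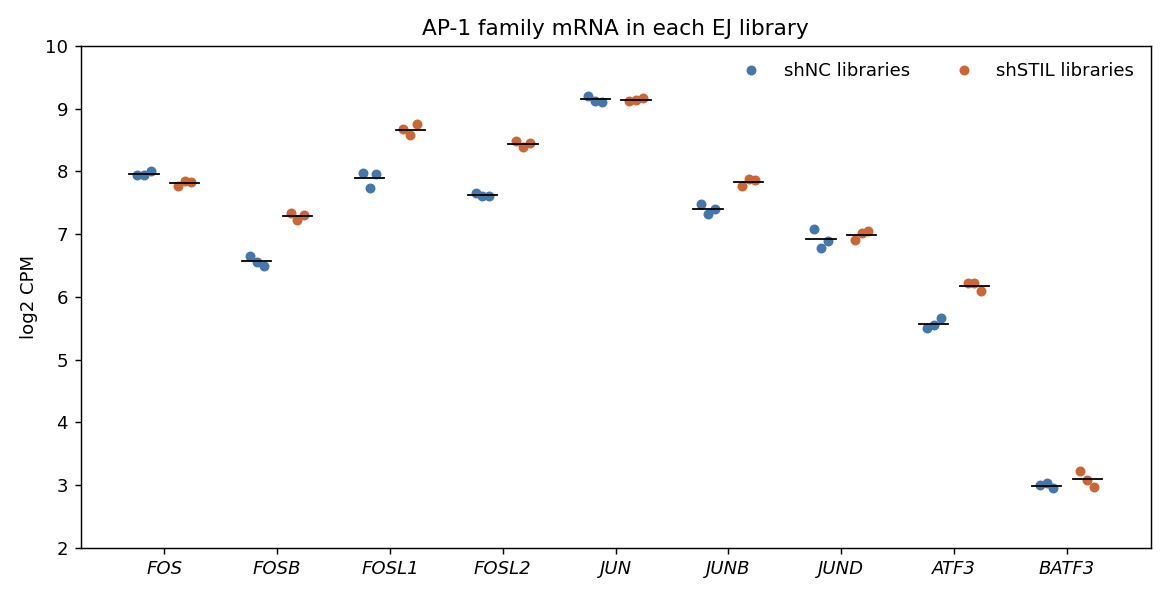
Log2 CPM of each AP-1 gene (horizontal axis) in the 3 shNC and 3 shSTIL libraries, with 1 point per library and a line at the group mean. The points of the groups are apart for FOSB, FOSL1, FOSL2, JUNB and ATF3, lie close for FOS, and overlap for JUN, JUND and BATF3.

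FOSL2 (Fra-2) had the largest fitted change of the family, although its 95% interval (0.74 to 0.89) overlapped that of FOSL1 (0.65 to 0.90), and without shNC replicate 3 FOSL1 was above it (0.81 against 0.80). This gene lies at chr2:28392448-28417312 on the plus strand of GRCh38, and its longest coding transcript has 4 exons. The shNC libraries held it at 7.66, 7.61 and 7.61 log2 CPM, against 8.49, 8.38 and 8.46 in the shSTIL libraries. Every shSTIL library was above every shNC library, with a gap of 0.72 between the groups. It rose by 0.81 on the log2 scale (limma, standard error 0.034 and adjusted p = 3.6e-10), from 3103 to 3239 reads in shNC to 5740 to 6129 reads in shSTIL libraries. A larger rise was seen for 5.37% of all genes.

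FOSL1 (Fra-1, chr11:65892049-65900573, minus strand) is a Fos gene known to be raised by RAS and ERK signalling. Its log2 CPM was 7.97, 7.74 and 7.96 in the shNC libraries and 8.67, 8.59 and 8.75 in the shSTIL libraries. The groups did not overlap, although the second shNC library lay below the other two. This was a rise of 0.78 on the log2 scale (limma, standard error 0.057 and adjusted p = 7.5e-08). With any library left out it stayed between 0.70 and 0.82 and passed the threshold in 6 of 6 fits.

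FOSB (chr19:45467995-45475179, plus strand), a close relative of FOS, rose in the same range. Values of 6.65, 6.56 and 6.49 log2 CPM were found in the shNC libraries and of 7.33, 7.23 and 7.30 in the shSTIL libraries, without overlap. FOSB rose by 0.72 (limma, standard error 0.044 and adjusted p = 1.3e-08). The DNA repair gene ERCC1 lies over the whole of FOSB on the other strand, but the annotated exons of the 2 genes share 0 bases. The log2 fold change of ERCC1 was 0.19 (limma adjusted p = 6.5e-04).

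FOS (c-Fos, chr14:75278774-75282230, plus strand) went the other way. Its log2 CPM was 7.94, 7.93 and 8.001 in the shNC libraries and 7.77, 7.84 and 7.83 in the shSTIL libraries. The groups did not overlap, but the gap was only 0.096. Its log2 fold change of -0.14 (limma, standard error 0.033 and adjusted p = 0.0020) left 90.5% of the shNC level. With any library left out the log2 fold change was -0.16 to -0.12, and the call was lost in 6 of 6 fits (limma adjusted p up to 0.025). It was also lost without the variance trend (-0.14, adjusted p = 0.034), after quantile normalization and with library totals in place of TMM factors (-0.10, adjusted p = 0.019), while edgeR and DESeq2 on the recovered reads kept it.

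**Figure D2:**
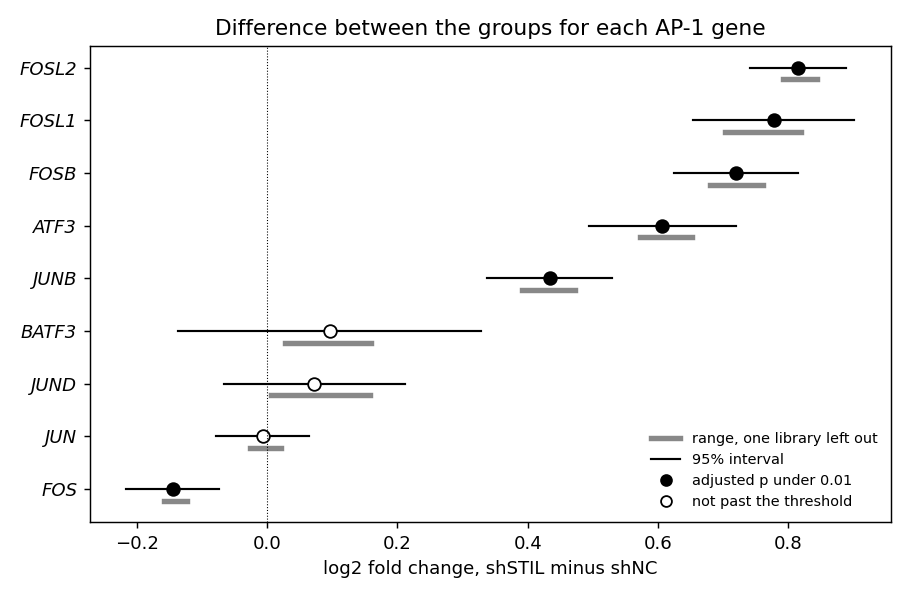
Log2 fold change (shSTIL minus shNC) of each AP-1 gene with its 95% interval from limma (thin line) and the range over 6 fits that each left out 1 library (grey bar). Filled points passed an adjusted p of 0.01. FOSL2, FOSL1, FOSB, ATF3 and JUNB lie between 0.43 and 0.81, FOS lies at -0.14, and the intervals of JUN, JUND and BATF3 span 0.

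Among the Jun genes, which supply the partner of every Fos protein, only JUNB passed the test. JUNB (chr19:12791496-12793315, plus strand) is a gene of 1 exon. In shNC libraries it stood at 7.48, 7.32 and 7.40 log2 CPM and at 7.76, 7.88 and 7.86 in the shSTIL libraries, without overlap. JUNB rose by 0.43 (limma, standard error 0.044 and adjusted p = 1.7e-06). HOOK2, whose annotation covers JUNB on the other strand, went in the opposite direction, with a log2 fold change of -0.58 (adjusted p = 3.4e-06 by limma), and its exons share 259 of the 1820 exon bases of JUNB. Whether the libraries kept the strand is not given in the sources used here, and the part of reads from these bases was not tested.

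JUN (c-Jun, chr1:58780788-58784327, minus strand) is the classical partner of c-Fos. The log2 CPM of JUN was 9.20, 9.13 and 9.11 in the shNC libraries and 9.12, 9.14 and 9.17 in the shSTIL libraries, and the values overlapped. Between the groups JUN had a log2 fold change of -0.0068, with a 95% interval from -0.078 to 0.065 (limma adjusted p = 0.88). At 8794 to 9756 reads per library, a change of more than 0.078 in either direction lies outside this interval. The sign is not stable to scaling, with 0.047 after quantile normalization and 0.037 with library totals.

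JUND (chr19:18279760-18281622, minus strand), the Jun member known to be expressed in resting cells, varied most among the shNC libraries of all 9 genes, with an SD of 0.15 log2 CPM. JUND was at a log2 CPM of 7.09, 6.78 and 6.88 in the shNC libraries and 6.90, 7.02 and 7.05 in the shSTIL libraries. These overlapped, and the log2 fold change was 0.073, with a 95% interval from -0.066 to 0.21 (limma adjusted p = 0.37).

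ATF3 (chr1:212565334-212620777, plus strand) is a stress-induced gene whose protein pairs with Jun proteins. ATF3 was at 5.50, 5.55 and 5.66 log2 CPM in the shNC libraries and 6.22, 6.22 and 6.09 in the shSTIL libraries, without overlap. ATF3 rose by 0.61 (limma, standard error 0.052 and adjusted p = 3.4e-07), from 725 to 801 reads in shNC to 1151 to 1280 reads in shSTIL libraries. BATF3 (chr1:212686418-212699985, minus strand), best known from dendritic cells, had 121 to 158 reads per library. Its log2 CPM was 2.996, 3.03 and 2.95 in the shNC libraries and 3.23, 3.08 and 2.96 in the shSTIL libraries. The values overlapped, and the log2 fold change was 0.096, with the widest 95% interval of the family, from -0.14 to 0.33 (limma adjusted p = 0.49).

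With 6 libraries there are 20 ways to assign the labels, so an exact permutation test of a single gene (two-sided) cannot go below 0.1. The 6 members whose groups did not overlap reached this limit of the exact test, and the exact permutation p was 0.9 for JUN, 0.6 for JUND and 0.3 for BATF3. The groups were also fully apart for 60.3% of all genes, and for 77.7% of those with at least the mean log2 CPM of BATF3.

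The Fos genes were also set against FOS within each library, where library scaling cancels. This comparison was chosen after the values were seen. The level of FOSL1 relative to FOS was 0.038, -0.20 and -0.046 on the log2 CPM scale in the shNC libraries and 0.90, 0.75 and 0.92 in the shSTIL libraries. The FOSL2 to FOS ratio was -0.39 to -0.28 in the shNC and 0.54 to 0.72 in the shSTIL libraries. For FOSB it was -1.51 to -1.29 and -0.61 to -0.44. The 3 log2 ratios differed between the groups by 0.86 to 0.96. As FOSB, FOSL1 and FOSL2 rose and FOS fell without overlap, these ratios had to separate, and their exact p adds no support. The JUNB to JUN ratio rose from a mean of -1.75 to -1.31, while the JUND to JUN ratio overlapped between the groups (exact two-sided permutation test, p = 0.3, against p = 0.1 for the other 4 ratios).

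Levels of different genes can be compared only per length, so CPM was divided by the length in kilobases of the longest coding transcript of each gene. In shNC cells JUN came first at 160 ± 5.55 CPM per kilobase (SD, n = 3), followed by FOSL1 at 142 ± 12.5, FOS at 115 ± 3.06, JUNB at 92.8 ± 5.21 and JUND at 65.1 ± 7.11. FOSL2 (29.5 ± 0.562), FOSB (25.1 ± 1.41), ATF3 (23.4 ± 1.30) and BATF3 (8.11 ± 0.221) lay lower. All neighbours in this order were separate in their 3 libraries except FOSB and ATF3, whose values overlapped.

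In shSTIL cells the order changed at the top. FOSL1 came first at 244 ± 13.7 CPM per kilobase, 1.53 times the level of JUN (160 ± 2.63), and JUNB (125 ± 5.52) passed FOS (104 ± 2.67). The lowest FOSL1 value, 230, was above the highest JUN value, 162. FOSL2 stood at 51.9 ± 1.89, FOSB at 41.4 ± 1.52 and ATF3 at 35.6 ± 1.89, and all neighbours in the order were separate. The order between genes depends on the transcript: with the mean length of all coding transcripts, FOS stood at 238 CPM per kilobase in shNC cells, above FOSL1 (198) and JUN (160). With that length JUNB did not pass FOS in shSTIL cells, where FOS made up 18.7% and JUNB 10.9% of the level summed over the members.

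**Figure D3:**
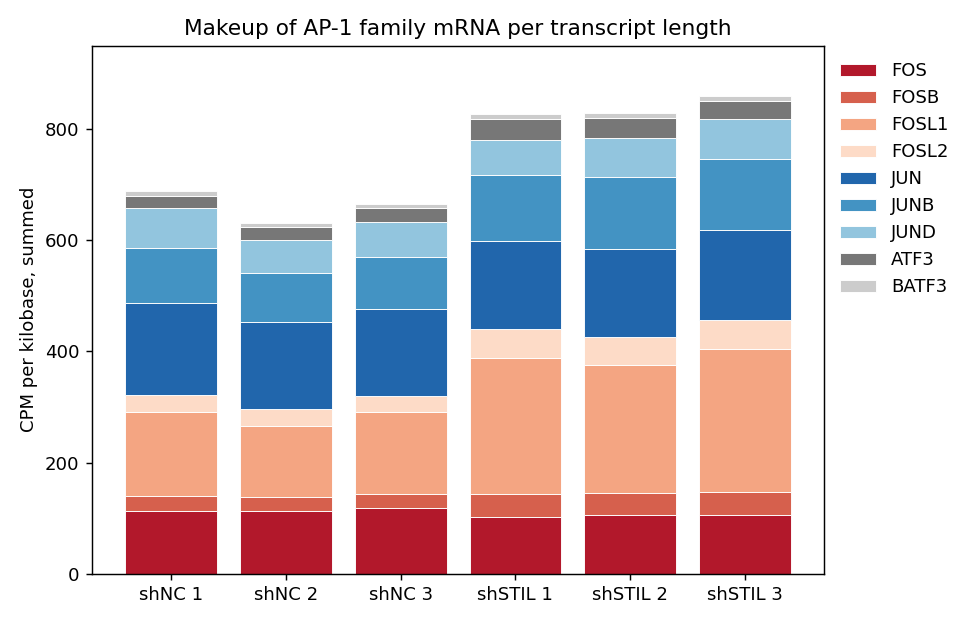
CPM per kilobase of the longest coding transcript, summed over the 9 AP-1 genes, in each of the 6 libraries. Bars start at 0, red shades are Fos genes, blue shades Jun genes and grey ATF3 and BATF3. The FOSL1 segment is larger in the 3 shSTIL libraries, while the JUN segment is nearly the same height in all 6.

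Summed over the members, the family level was 689, 632 and 665 CPM per kilobase in the shNC libraries and 828, 829 and 860 in the shSTIL libraries. The groups did not overlap, and the ratio of their means was 1.27. The Fos sum rose from 312 ± 14.4 to 441 ± 15.7 CPM per kilobase, a ratio of 1.41, and the Jun sum went from 318 ± 17.1 to 353 ± 11.2, a ratio of 1.11 (SD, n = 3). FOSL1 made up 21.5% ± 1.09 of the summed level in shNC and 29.1% ± 1.15 in shSTIL cells. The share of JUN went from 24.2% ± 0.789 to 19.0% ± 0.151 and that of FOS from 17.4% ± 0.823 to 12.4% ± 0.327. These shares are a description, with no test. They depend on the transcript length: with the mean length of all coding transcripts the Fos sum was 514 in shNC and 688 in shSTIL cells (ratio 1.34), above the Jun sum of 356 and 393 (ratio 1.10), and the share of FOS went from 25.9% to 18.7%.

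The promoters of the members were searched for patterns of the sites that AP-1 and related bZIP proteins bind, and for the serum response site. RefSeq promoter sequences (GRCh38.p14, 250 bases before to 50 after a gene start) were matched for 7 of the 9 members, with 8 starts in all, and not for FOSL1 and BATF3. The motifs were TGANTCA, TGANNTCA (which includes TGACGTCA) and the CArG box, the serum response site, all of which read the same pattern on both strands. N stands for any base, so TGANNTCA also takes in other letters, such as TGAGCTCA. TGANNTCA was found before the gene starts of JUN, ATF3 and JUND, and it occurs in 11.5% of all 35116 promoters. TGANTCA was found in the FOSL2 window, just after the gene start, and occurs in 7.71% of promoters. No CArG box lay in these windows, against 1.29% of promoters. Bases more than 250 before a start were not searched, so the absence of such a site near these genes cannot be read from this. The sites before the starts are shown with 11 bases on each side, the motif in capitals, 5′ to 3′ on the gene's strand, at chr1:58784096-58784125 (JUN), chr1:212565273-212565302 (ATF3), chr19:18281804-18281833 (JUND, distal) and chr19:18281658-18281687 (JUND, proximal).
JUN: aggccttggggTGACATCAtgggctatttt
ATF3: cacctatgataTGACATCAtatggccactc
JUND distal: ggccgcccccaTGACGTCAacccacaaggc
JUND proximal: aacgggggcggTGAGCTCAtcgcgccgagc
JUN and ATF3 hold the same 8 letters, 67 and 123 bases before their RefSeq starts. In the GENCODE model JUN starts farther upstream, so that its site lies within the single exon there. Their mRNA differed in response, since ATF3 rose by 0.61 and JUN had a log2 fold change of -0.0068. A match of letters is not evidence that a factor binds there.

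Other bZIP genes, whose proteins pair or compete with AP-1, were read from a list of 19, of which 18 were measured. Among these 10 rose (55.6%), 3 fell (16.7%) and 5 did not pass, against 23.5% higher and 23.6% lower among all genes. For genes whose mean log2 CPM reached that of BATF3, the shares were 32.4% higher and 32.9% lower. A mean log2 CPM of at least 1 was reached by 14 of the 18. The median log2 fold change of the list was 0.34. The 3 small Maf genes, which have no activating domain, rose together: MAFF by 1.08 (standard error 0.051, limma adjusted p = 1.2e-09), MAFK by 0.74 and MAFG by 0.70. CREB5, a relative of ATF2, rose by 0.82 (limma adjusted p = 4.4e-10). NFE2L2, the NRF2 gene of the oxidative stress response, fell by 0.25 (limma adjusted p = 4.3e-05). ATF5 (-0.36) and DDIT3 (-0.19), both stress response genes, also fell, but these calls held in 1 and 0 of the 6 fits that left out a library.

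Upstream of AP-1, 22 genes of the MAP kinase cascades and of the serum response factors were measured. Of these 9 rose (40.9%) and 9 fell (40.9%), against 23.5% higher and 23.6% lower among all genes (median of the list 0.11). Genes with at least the mean log2 CPM of BATF3 had shares of 32.4% higher and 32.9% lower. A mean log2 CPM of at least 1 was reached by 21 of the 22. Of the 4 genes for SRF and its ELK partners on this list, 3 passed the test: SRF rose by 0.61 (limma adjusted p = 3.3e-09), ELK4 by 0.74 and ELK3 by 0.53. The log2 fold change of ELK1 was 0.045 (adjusted p = 0.31 by limma). The kinase genes were split. MAP2K3, whose product activates p38, rose by 0.76 (limma adjusted p = 1.4e-09). Its relative MAP2K6 fell by 1.96, from 74.0 to 98.0 reads in shNC to 15.0 to 31.0 in shSTIL libraries (limma adjusted p = 9.1e-06), a call lost in 1 of the 6 fits that left out a library. The p38 gene MAPK11 fell by 0.74, MAPK7 (ERK5) by 0.71 and RPS6KA1, a kinase downstream of ERK, by 0.62.

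Of 11 genes for the turnover and cofactors of AP-1 proteins, 6 rose (54.5%) and 2 fell (18.2%), with a median of 0.25. The shares among all genes were 23.5% higher and 23.6% lower. They were 32.4% and 32.9% among genes with at least the mean log2 CPM of BATF3. CREBBP, a coactivator of Fos and Jun proteins, rose by 0.77 (limma adjusted p = 3.2e-09). COP1 (0.29), DET1 (0.62) and TRIB1 (0.31), which belong to ubiquitin ligase assemblies that include one for JUN, rose, although the DET1 call held in none of the 6 fits that left out a library. MEN1, whose product binds JUND, fell by 0.29 (limma adjusted p = 1.3e-05).

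**Figure D4:**
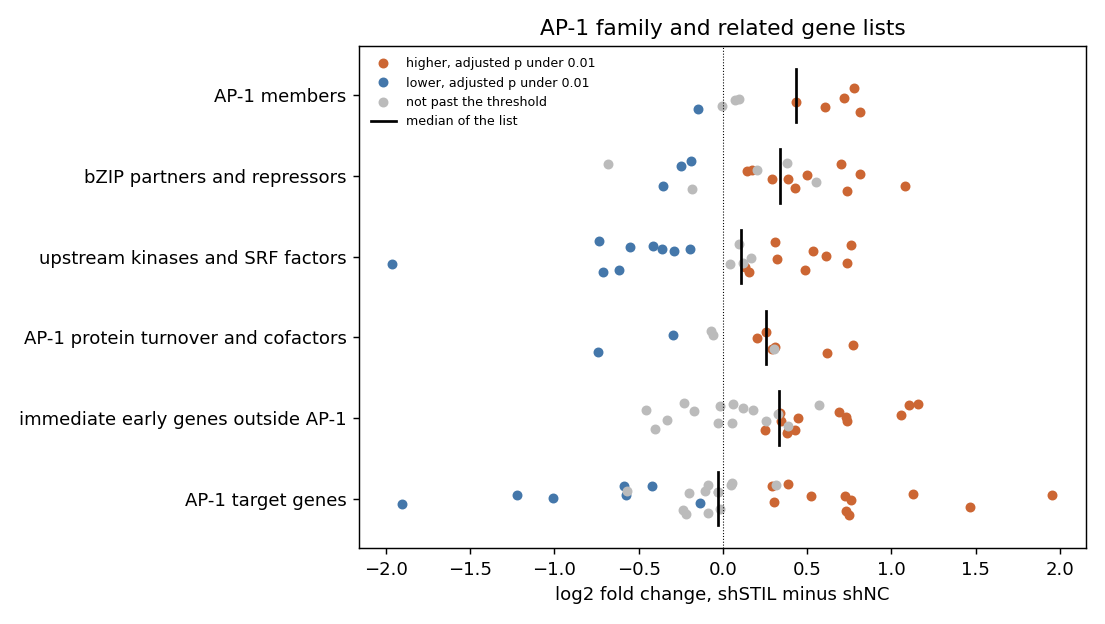
Log2 fold change (shSTIL minus shNC) of each measured gene in the AP-1 family and 5 related lists, with 1 point per gene and a black line at the median of each list. Past the threshold, the immediate early list holds 13 higher and 0 lower of 28 genes, and the target list 11 higher and 7 lower of 31. Of all genes, 23.5% were higher and 23.6% lower.

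Immediate early genes outside AP-1 share many inputs with FOS and JUN. Of 28 measured genes 13 rose (46.4%) and 0 fell by limma at an adjusted p under 0.01 (median 0.33). The shares were 23.5% higher and 23.6% lower among all genes. They were 32.4% and 32.9% among genes with at least the mean log2 CPM of BATF3. A mean log2 CPM of at least 1 was reached by 22 of the 28. At an unadjusted p under 0.05 limma had 1 lower, and edgeR and DESeq2 called 0 and 0 lower. DUSP5, a phosphatase of nuclear ERK, rose by 1.16 (standard error 0.033, limma adjusted p = 1.4e-11), CCN2 by 1.11, CCN1 by 1.06 and KLF6 by 0.73. CCN1 and CCN2, which encode secreted matrix proteins, went from 11037 to 11405 reads in the shNC to 24494 to 26030 reads in the shSTIL libraries. Outside the naming rule and chosen after the values were seen, several classical genes of this class did not pass: the log2 fold change was 0.12 for EGR1 (adjusted p = 0.044 by limma), 0.063 for IER2 and 0.055 for IER3.

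Of 31 measured AP-1 target genes 11 rose (35.5%), 7 fell (22.6%) and 13 did not pass, and the median was -0.026. The shares were 23.5% higher and 23.6% lower among all genes. They were 32.4% and 32.9% among genes with at least the mean log2 CPM of BATF3. A mean log2 CPM of at least 1 was reached by 20 of the 31. With a library left out, 10 to 11 rose and 3 to 4 fell. HBEGF, a ligand of the EGF receptor, had the largest rise of those named, by 1.47, from a log2 CPM of 7.63 ± 0.041 in shNC to 9.09 ± 0.032 in shSTIL libraries (SD, n = 3; limma adjusted p = 1.9e-12). IL6 rose by 0.76, the gap junction gene GJA1 by 0.75 and PLAUR, the urokinase receptor, by 0.73. AREG, another ligand of the EGF receptor, fell by 1.01 (limma adjusted p = 5.1e-05), at 83.0 to 90.0 reads in shNC and 40.0 to 49.0 in shSTIL libraries. EZR, which links actin to the membrane, fell by 0.59, IL11 by 0.58 and HMOX1 by 0.42. The calls of IL11 and HMOX1 each held in 1 of the 6 fits that left out a library.

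Genes with the most similar pattern were sought among 9942 genes (mean log2 CPM of 3 or more) by Pearson's r over the 6 libraries. The closest to FOSL2 were PLAUR (r = 0.9998), ZC3H7B (r = 0.9998) and UBE2D4 (r = 0.9997). The closest to FOSL1, the member with the highest level per length over all libraries, were DDRGK1 (r = 0.9993), DESI1 (r = 0.9984) and TPD52L2 (r = 0.9983). These values are a description: all 6 libraries carry the difference between the groups, and 2966 genes reached an r of 0.9 with FOSL2 and 2632 with FOSL1.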

How the data were processed

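RNA-seq was analysed in 6 libraries of EJ cells. Sequencing was on the BGISEQ-500. SOAPnuke served the authors for read filtering, Bowtie2 for mapping against transcripts and RSEM for gene quantification, with build hg38 per the submitters' processing notes. The deposited tables are log2 CPM of 15953 genes in all 6 libraries, made by the authors with edgeR, and RSEM estimated counts, deposited without normalization and used here for 4 libraries. RSEM divides reads between similar transcripts, so paralog values are uncertain. Versions are not given in the sources used here.

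Groups were compared with limma 3.58.1 (lmFit, eBayes with trend) in R 4.3.3, run over all genes of the deposited log2 CPM tables, without a replicate block, with Benjamini-Hochberg adjustment and a threshold of 0.01. Log2 CPM was tested because the estimated counts cover 1 control library. Reads were recovered from the spacing of low log2 CPM values (within 0.397 reads of the estimated counts where both were used) and, rounded, served edgeR 4.0.16 and DESeq2 1.42.0 as alternatives. The scripts were tested on simulated data.

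The members and lists were chosen with earlier results of these data known. Named genes are the members, STIL, and from each list up to 4 rises and 4 falls with an adjusted p under 0.01, groups that do not overlap and mean log2 CPM no lower than 1, and for 2 members the 3 genes of most similar pattern. Of the genes this rule names, 1 is not reported here. Lists were described by counts and medians, with no set test. Of the listed genes, 12 (BATF, IVL and 10 cell type markers) were not analysed here. Gene coordinates and transcript lengths are those of GENCODE on GRCh38.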

Additional observations from a re-analysis of the deposited data

How the results depend on the processing

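STIL, FOSB, FOSL1, FOSL2, JUNB and ATF3 passed an adjusted p of 0.01 in the same direction in each of the 16 alternative fits, and JUN, JUND and BATF3 passed in none. FOS was called in 7 of 16: its log2 fold change was -0.14 without the trend (adjusted p = 0.034), -0.11 with quantile normalization, -0.10 with library totals in place of TMM factors (an alternative chosen after seeing the data), and -0.16 to -0.12 with a library left out, each with an adjusted p above 0.01. The sign of JUN turned to 0.047 with quantile normalization, 0.037 with library totals, 0.021 without shNC replicate 1 and 0.0038 without shSTIL replicate 1 (range -0.026 to 0.021 with a library left out). The cause of these changes was not tested.

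No member has an absolute log2 fold change above 1 (FOS -0.14, FOSB 0.72, FOSL1 0.78, FOSL2 0.81, JUNB 0.43, ATF3 0.61), so under that minimum 0 members are higher and 0 lower. It leaves 456 higher and 495 lower DEGs, 1 higher and 0 lower bZIP genes, 0 and 1 upstream genes, 0 and 0 turnover genes, 3 immediate early genes higher, and 3 higher and 3 lower target genes. The number of lower bZIP genes was 1 without the trend, with DESeq2 and with library totals, and 1 immediate early gene was lower at an adjusted p under 0.05. With FOS lost, 0 members were lower without the trend, with quantile normalization and with library totals. With a library left out, DEGs numbered 2400 to 2801 higher and 2500 to 2837 lower (fewest without shSTIL replicate 3), 0 to 0 members, 1 to 2 bZIP genes and 3 to 4 target genes were lower. Against TMM factors, library totals moved DEGs to 4178 higher and 3355 lower.

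With the mean length of coding transcripts, control levels were 238 CPM per kilobase for FOS, 34.6 for FOSB, 198 for FOSL1, 44.2 for FOSL2, 103 for JUND and 41.8 for ATF3. The replicate block gave 3430 higher and 3468 lower DEGs and changed no member's call. The deviations of same-numbered libraries from their group means had correlations of -0.12, -0.055 and -0.11, so no shared shift by number was seen. Libraries of different numbers were not compared, so this does not settle whether the numbers pair them. BATF3, at 121 to 158 reads per library, had the widest interval of the members.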
